A study of Mus musculus with 18 samples.

Results

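Tumors grown from 4T1, a murine breast cancer line of the triple-negative type, were treated with a PI3K inhibitor, an SHP2 inhibitor, both or neither, and RNA of whole tumors was sequenced. The comparison described here asks for which genes the pair of inhibitors gave more or less than the sum of what each inhibitor gave alone. For each gene the interaction was the log2 change from PI3Ki to Combo minus the log2 change from Vehicle to SHP2i, which equals the Combo effect minus the sum of both single effects. A gene is said to lie above the sum where this value was positive and passed the test, and below the sum where it was negative and passed. All 18 of the 18 tumors of the series entered the contrast, and 378 of 15282 genes tested passed it at an adjusted p under 0.05 (edgeR's quasi-likelihood F test, Benjamini-Hochberg adjustment over all genes tested).

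Vehicle alone was given in 5 cases (Vehicle), CLR457, which inhibits PI3K, in 4 (PI3Ki), SHP099, which inhibits SHP2, in 4 (SHP2i), and both compounds together in 5 (Combo). All mice were female Balb/c, 8 weeks of age when 300000 cells were injected into the mammary fat pad, and all groups share that host with its immune system and stroma. Treatment ran from day 7 to day 21, when the tumors were taken, and the single cell line limits the groups as a model. Sums ran from 21.16 M to 26.62 M counts per tumor (M, mega). The study counts the replicates of this experiment as animals, so that p-values measure the spread between mice of a group.

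PI3K makes a membrane lipid that switches on the kinase AKT, which drives protein synthesis and keeps FOXO transcription factors out of the nucleus. SHP2, the tyrosine phosphatase encoded by Ptpn11, is recruited by receptor tyrosine kinases and their adaptors and is needed for full activation of RAS and ERK. Both branches start from the same receptors, in carcinoma cells and in the endothelium, fibroblasts and leukocytes of a tumor, and each can rise when the other is blocked.

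Of the genes tested, 132 lay above the sum (0.864%) and 246 below it (1.61%). Counts of calls in gene lists are to be read beside these shares. Above the sum the interaction had a median of 0.82 on the log2 scale and ranged from 0.38 to 4.34, and below the sum its median was -2.04 with a range from -6.87 to -0.32. Of the 132 genes above the sum 93 (70.5%) passed against Vehicle with neither inhibitor alone, a smaller share than the 84.0% of all genes tested, and 82 of those 93 were higher in Combo than in Vehicle. In all, 104 of the 132 were higher in Combo, where 23.9% of all genes were higher and 19.7% lower. The genes below the sum fell into 2 large sets. In the first, 117 (47.6%) passed with neither inhibitor alone, and 108 of them were lower in Combo. In the second, 93 were higher with PI3Ki alone, where 2.69% of all genes were higher and 2.42% lower. SHP2i alone gave higher levels of 5.05% of genes and lower levels of 6.54%, and 17 of the 132 and 16 of the 246 genes were among the higher ones. The interaction shares its tumors with these comparisons, so that the crossed counts are descriptions.

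**Figure D1:**
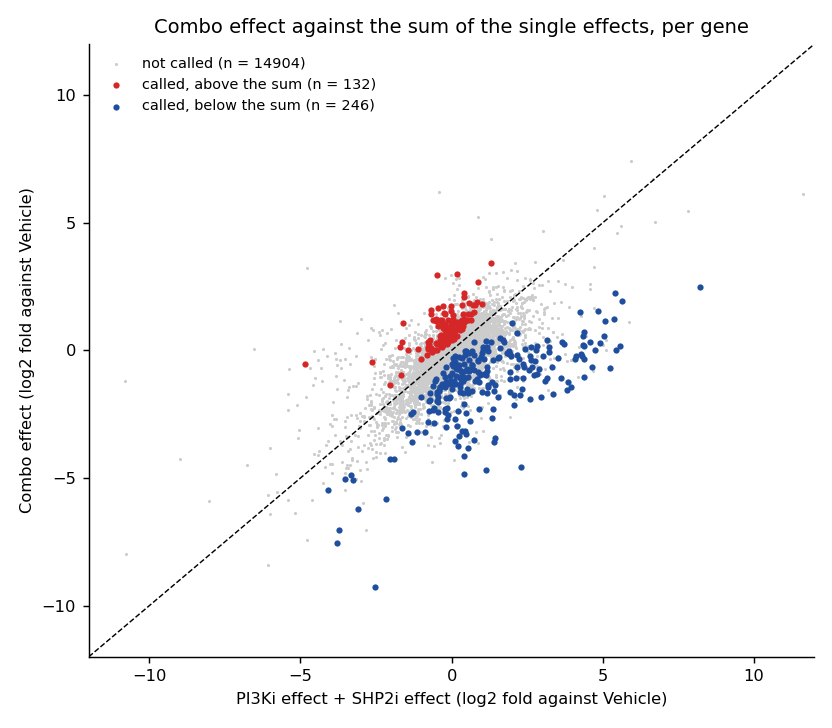
The log2 fold change of Combo against Vehicle (vertical axis) is plotted over the sum of the log2 fold changes of PI3Ki and of SHP2i against Vehicle (horizontal axis), 1 point per gene tested. Points on the dashed line have no interaction. The 132 red genes lie mostly near a sum of 0 with a positive Combo effect, and the 246 blue genes form a cloud near 0 with a negative Combo effect and an arm to the right, where single effects were large and Combo stayed near Vehicle.

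Read by direction, the pair went further than the sum for 49 genes above it and 59 below it. It fell short of the sum for 9 and 37 genes, and it moved against the sign of the sum for 74 and 150 genes. The sign of the interaction was the same when it was computed on the CPM scale (counts per M counts, scaled by TMM) for 132 of 132 genes above and 240 of 246 below. At the edge of the threshold lay Zfp658 with an adjusted p of 0.04996 just inside and Thbs3 with 0.05035 just outside.

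Some tumors stood apart in their marker genes. Skeletal muscle markers were high in every PI3Ki tumor: the 21 tested genes summed to 1099 to 2505 CPM there, against 109.6 to 220.5 in Vehicle, 111.5 to 134.9 in SHP2i and 109.9 to 193.6 CPM in Combo. Neutrophil markers (18 tested) summed to 3636 CPM in PI3Ki replicate 2, against at most 864.8 CPM in Vehicle. B and plasma cell markers (11 tested) spanned 7.97 to 700 CPM within Combo, with replicates 3 and 4 at the high end, and 3.67 to 359.9 CPM within PI3Ki. Epithelial and keratin genes, which fit the labelled carcinoma, summed to 739.9 to 1437 CPM over the 18 tumors. Carcinoma, vessel, stromal and immune markers were thus all present in these bulk samples, where fewer cells of a type and less RNA per cell cannot be told apart.

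**Figure D2:**
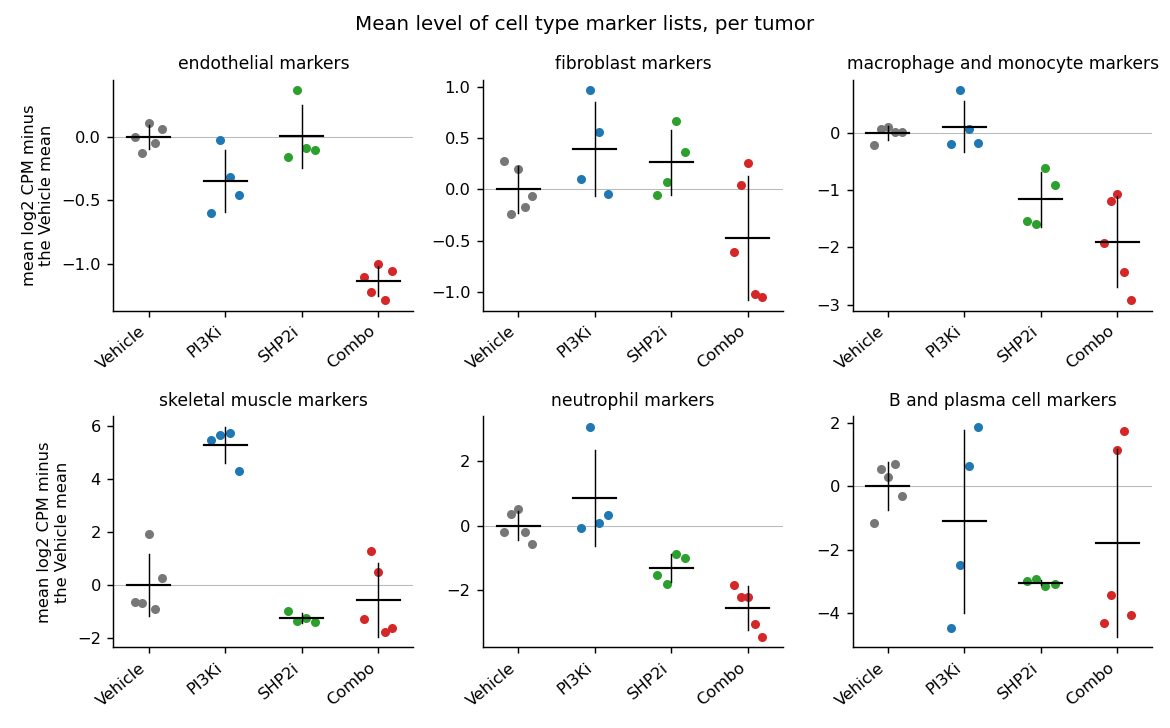
The mean log2 CPM of the tested genes of 6 marker lists is plotted per tumor (points) for the 4 groups, less the mean of the Vehicle tumors; horizontal bars are group means and vertical bars the SD. Endothelial markers are low in the 5 Combo tumors (-1.29 to -1.0), muscle markers are high in the 4 PI3Ki tumors (4.29 to 5.72), and 1 PI3Ki tumor stands high for neutrophil markers (3.07).

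These differences moved with the counts of called genes. With the muscle list's mean as a covariate, 0 genes passed in either direction (edgeR, 305 above and 282 below the sum at an unadjusted p under 0.05). Group membership accounts for 88.3% of that covariate's variance, so that muscle content and PI3Ki treatment cannot be told apart by this fit. With the neutrophil list as a covariate, an alternative chosen after seeing the data, 4 genes passed above and 23 below, and groups account for 75.6% of its variance. With the B cell list (25.7%) the counts were 47 and 120, and without Combo replicates 3 and 4 they were 97 and 233. Leaving out each tumor in turn gave 38 to 218 genes above and 111 to 414 below, the lowest without SHP2i replicate 4. Of 68 called genes that are named by rule, 38 passed in all 18 of these fits, and the genes given in full here come mainly from them.

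Several genes above the sum encode secreted ligands. Pdgfa encodes a ligand of PDGF receptors that recruits mesenchymal cells. Its level was 242, 197, 165, 202 and 174 CPM in the Vehicle tumors, 187, 159, 159 and 157 in the PI3Ki tumors, 257, 283, 175 and 246 in the SHP2i tumors and 522, 454, 381, 634 and 566 in the Combo tumors. Every Combo tumor lay above each of the other 13 tumors, and neither single group stood clear of Vehicle. The PI3Ki effect on Pdgfa was -0.24 ± 0.15 on the log2 scale, the SHP2i effect 0.29 ± 0.15 and the Combo effect 1.38 ± 0.15 (SE), and the interaction was 1.33 ± 0.22 (edgeR adjusted p = 0.00521). The gene (Entrez 18590) lies at chr5:138976014-139000792 of GRCm38.p6.

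Wnt6 and Wnt9a encode WNT ligands, and Wls, the carrier that WNT ligands need for secretion, stood just inside the threshold (0.71, adjusted p = 0.0498, edgeR). Wnt6 was at 83.4, 73.0, 50.6, 73.5 and 56.6 CPM in the Vehicle tumors, 45.5, 66.1, 83.0 and 47.0 in the PI3Ki tumors, 72.8, 167, 73.7 and 85.8 in the SHP2i tumors and 371, 313, 275, 302 and 356 in the Combo tumors. The lowest Combo tumor exceeded the highest other tumor, SHP2i replicate 3. The interaction of Wnt6 was 1.85 ± 0.34 (SE; edgeR adjusted p = 0.0102) with a Combo effect of 2.26. Wnt9a was at 18.8, 16.7, 14.9, 13.2 and 14.9 CPM in the Vehicle tumors, 16.7, 9.66, 16.8 and 14.5 in the PI3Ki tumors, 9.62, 12.8, 13.9 and 15.3 in the SHP2i tumors and 27.3, 29.3, 31.7, 48.9 and 43.4 in the Combo tumors. Here both single effects were slightly negative (-0.12 and -0.28, neither called), the Combo effect was 1.2 and the interaction 1.6 ± 0.28 (edgeR adjusted p = 0.00749). Wnt6 overlaps Gm29539 and Wnt9a overlaps Gm51865, whose reads the counts may not separate.

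Stc1 encodes stanniocalcin, a secreted glycoprotein, and Rdh10 an enzyme of retinoic acid synthesis. Stc1 was at 125, 110.3, 83.4, 139 and 119.7 CPM in the Vehicle tumors, 75.4, 64.4, 91.9 and 68.6 in the PI3Ki tumors, 109.5, 180.1, 87.5 and 125 in the SHP2i tumors and 288, 232, 191, 366 and 294 in the Combo tumors. PI3Ki tumors held less Stc1 than most Vehicle tumors (-0.62, edgeR adjusted p = 0.0954, not called), whereas all Combo tumors held more, with an interaction of 1.75 ± 0.29 (edgeR adjusted p = 0.00611). Rdh10 was at 137, 126, 108, 130.1 and 115 CPM in the Vehicle tumors, 126, 98.6, 160.5 and 98.5 in the PI3Ki tumors, 125, 178, 92.6 and 96.1 in the SHP2i tumors and 368, 379.7, 304, 540.3 and 453 in the Combo tumors. Neither single effect passed (-0.03 for PI3Ki, with SHP2i at the Vehicle level), and the Combo effect was 1.73 ± 0.19 (SE; interaction 1.76 ± 0.28, edgeR adjusted p = 0.00497). Stra6, the receptor through which cells take up retinol, also lay above the sum (1.95 ± 0.43, edgeR adjusted p = 0.0257), but with Combo near Vehicle (0.32, not called) and low levels in SHP2i (5.12 to 6.21 CPM against 8.15 to 19.4 in Vehicle). Stra6 passed in 13 of the 18 fits that left out 1 tumor, with adjusted p up to 0.0648.

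Mmp11 had the smallest p above the sum. It encodes stromelysin 3, a matrix metalloproteinase. Its level was 26.6, 23.5, 24.8, 25.2 and 28.7 CPM in the Vehicle tumors, 31.3, 23.9, 28.6 and 24.5 in the PI3Ki tumors, 26.6, 27.4, 28.1 and 28.9 in the SHP2i tumors and 46.4, 55.7, 59.7, 56.9 and 60.2 in the Combo tumors. No Combo tumor overlapped the 13 others, the highest of which was PI3Ki replicate 1. The interaction was 0.93 ± 0.13 (edgeR adjusted p = 0.00179), and with the neutrophil covariate it was still called (0.72, edgeR adjusted p = 0.0472). Of the 16 tested genes of the metalloproteinase list Mmp11 alone lay above the sum and 0 lay below (edgeR), against 0.864% and 1.61% of all genes. Without Combo replicate 3, 3 of the list lay below, and the list's median with all tumors was -0.76. Mmp13, the list member with the next smallest p, had an interaction of -2.22 (edgeR adjusted p = 0.103).

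Itga10 encodes the collagen-binding integrin chain alpha 10, and Npnt encodes nephronectin, a matrix ligand of another integrin. Itga10 was at 5.96, 7.59, 6.71, 10.6 and 6.67 CPM in the Vehicle tumors, 16.0, 6.97, 11.7 and 15.1 in the PI3Ki tumors, 7.97, 10.4, 11.6 and 14.4 in the SHP2i tumors and 45.3, 55.1, 77.4, 96.8 and 132 in the Combo tumors. All Combo tumors exceeded the others, with replicate 5 the highest, and the interaction was 2.14 ± 0.42 (SE; edgeR adjusted p = 0.015). Npnt was at 109, 101, 93.4, 120.4 and 127 CPM in the Vehicle tumors, 163, 64.2, 188 and 162 in the PI3Ki tumors, 40, 85.0, 52.2 and 32.7 in the SHP2i tumors and 281, 238, 177, 591 and 354 in the Combo tumors. The SHP2i tumors were below all Vehicle tumors, SHP2i replicate 3 was above PI3Ki replicate 2, and Combo replicate 3 was below PI3Ki replicate 3. A single effect of -1.07 for SHP2i (not called, adjusted p = 0.0534) stood against a Combo effect of 1.57 (edgeR interaction 2.26 ± 0.49, adjusted p = 0.0234). Npnt lost its call without SHP2i replicate 2, 4 or 5 (edgeR adjusted p up to 0.0555). Cemip2, which degrades hyaluronan, was at 80.9 to 122 CPM in Vehicle, 96.6 to 142 in PI3Ki, 100.5 to 134 in SHP2i and 206 to 296 in Combo (interaction 1.17 ± 0.20, edgeR adjusted p = 0.00703). Spns3, a member of the family of lipid carriers, rose from 3.84 to 6.24 CPM in Vehicle to 21.9 to 49.1 in Combo with an interaction of 1.80 ± 0.32 (edgeR adjusted p = 0.00819).

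**Figure D3:**
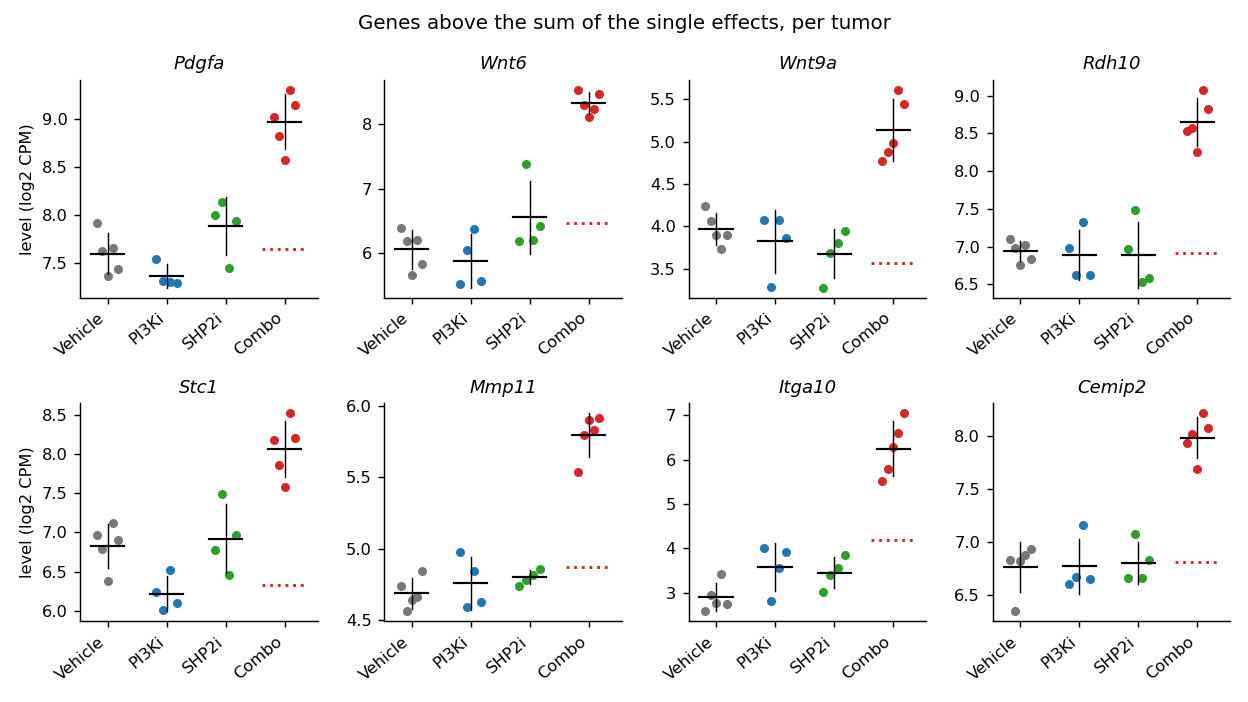
Levels of 8 genes above the sum are plotted as log2 CPM (vertical axis) for each tumor of the 4 groups; horizontal bars are means, vertical bars the SD, and the dotted red line is the level that the sum of the single effects gives. All 5 Combo tumors lie above the dotted line and above the 13 other tumors in each panel.

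Further genes above the sum are epithelial or signalling genes. Sprr2a2, a gene of the cornified envelope with near-identical copies beside it, was at 14.3 to 17.9 CPM in Vehicle and at 336, 84.2, 88.2, 85.8 and 45.2 CPM in the Combo tumors. Replicate 1 made the top of that range. The interaction was 2.81 ± 0.64 (edgeR adjusted p = 0.0286), called in 13 of the 18 fits without 1 tumor (adjusted p up to 0.0662). Msln encodes mesothelin, a surface protein of mesothelium and carcinoma. Its level was 4.35 to 9.73 CPM in Vehicle, 8.06 to 15.69 in PI3Ki, 1.46 to 4.67 in SHP2i and 15.87 to 34.4 in Combo. The highest PI3Ki tumor thus nearly reached the lowest Combo tumor. The interaction of 2.01 ± 0.47 (edgeR adjusted p = 0.0334) was called in 9 of the 18 fits (adjusted p up to 0.076). Susd4, an inhibitor of complement, was at 1.76 to 4.71 CPM in Vehicle and 5.81 to 10.5 in Combo (interaction 2.10 ± 0.47, edgeR adjusted p = 0.0273) and lost its call without SHP2i replicate 2 or 4 (adjusted p up to 0.0668).

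In the list of PDGF ligands and receptors, 2 of 7 tested genes lay above the sum and 0 below, against 0.864% and 1.61% of all genes. The second is Pdgfc, at 101, 109, 111, 113 and 133 CPM in the Vehicle tumors, 121, 87.3, 115 and 95.0 in the PI3Ki tumors, 115, 151, 126 and 144 in the SHP2i tumors and 178, 188, 167, 236 and 243 in the Combo tumors. The Combo tumors again lay highest. The interaction of Pdgfc was 0.72 ± 0.18 (edgeR adjusted p = 0.0474), near the threshold, and it was called in 5 of the 18 fits without 1 tumor (adjusted p up to 0.108). The receptors were not called: Pdgfra had an interaction of 0.51 with a Combo effect of 1.66 (edgeR adjusted p = 1.26e-05), and Pdgfrb an interaction of 0.45 with a Combo effect of 0.26 (edgeR adjusted p = 0.285). Pdgfb, the ligand that endothelium uses to hold pericytes, had values in the other direction, with an interaction of -0.41 (adjusted p = 0.162) and a Combo effect of -0.94 (edgeR adjusted p = 3.32e-06).

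Among 26 tested ligands of receptor tyrosine kinases 1, Fgf1, lay above the sum and 0 below, against 0.864% and 1.61% of all genes. Fgf1 binds all FGF receptors. It was at 7.57, 6.61, 7.85, 6.24 and 9.29 CPM in the Vehicle tumors, 5.67, 3.95, 6.13 and 6.03 in the PI3Ki tumors, 5.11, 10.7, 4.67 and 10.2 in the SHP2i tumors and 11.4, 18.1, 18.5, 26.3 and 44.8 in the Combo tumors. All Combo tumors exceeded the others, with replicate 5 the highest, and the interaction was 2.10 ± 0.47 (edgeR adjusted p = 0.0277; called in 13 of 18 fits without 1 tumor, adjusted p up to 0.0662). Igf2 had the next smallest p of the list and was not called (1.51, edgeR adjusted p = 0.0692). Of the 28 tested receptor tyrosine kinases 0 passed in either direction, where 2.47% of all genes passed, and the list's median was -0.04.

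The lists of genes nearest to the drug targets held no call. None of the 24 tested PI3K and AKT genes and none of the 22 tested SHP2, adaptor and RAS genes passed (edgeR). Over all genes tested 2.47% passed, so that 0 calls in lists of this size lie near that share. An unadjusted p under 0.05 (edgeR) was found for 2843 of all genes tested. The medians of the lists were 0.10 and 0.02, near the median of 0.02 over all genes. Ptpn11 itself had an interaction of 0.09 ± 0.13 (SE; edgeR adjusted p = 0.753). Pik3ca was at 0.25 ± 0.12 (0.278), Pik3cb at -0.09 ± 0.18 (0.831), Pik3cd at 0.11 ± 0.50 (0.931) and Pik3cg at 0.05 ± 0.55 (0.974), each with its SE and edgeR adjusted p. Pik3cd and Pik3cg, the leukocyte forms, were lower with SHP2i alone (-1.35 and -1.67) as in Combo (-0.95 and -1.74).

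Of the 23 tested FOXO targets and insulin feedback genes, 18 had a positive estimate, where the median interaction over all genes was 0.02. Only 1, Irs1, was called, against 0.864% of all genes above the sum, and a single call says little about the list. Irs1 encodes the adaptor between the insulin receptor and PI3K, and its gene is restrained while AKT is active. Its level was 66.6, 52.5, 61.2, 66.9 and 67.8 CPM in the Vehicle tumors, 69.8, 40.9, 69.2 and 71.0 in the PI3Ki tumors, 85.0, 83.0, 72.4 and 77.2 in the SHP2i tumors and 129, 141, 120.4, 165 and 144 in the Combo tumors. The Combo tumors lay above the rest (interaction 0.82 ± 0.19, edgeR adjusted p = 0.0342), and the call held in 9 of 18 fits without 1 tumor (adjusted p up to 0.0833). The list's median was 0.28, and its medians against Vehicle were 0.37 for PI3Ki, 0.06 for SHP2i and 0.78 for Combo. Bcl6 came next with an interaction of 0.60 (edgeR adjusted p = 0.0549, not called).

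For Myc and Cx3cr1 both single estimates were negative and the pair gave less than their sum. Myc, a driver of growth, was at 171, 168, 145, 153 and 150.4 CPM in the Vehicle tumors, 114, 100.4, 108 and 112 in the PI3Ki tumors, 127, 131, 119.5 and 142 in the SHP2i tumors and 111, 150.4, 119.8, 164 and 148 in the Combo tumors. PI3Ki tumors were lower than Vehicle (-0.53, edgeR adjusted p = 0.00456), SHP2i (-0.28) and Combo (-0.18) did not pass, which gave an interaction of 0.63 ± 0.14 (edgeR adjusted p = 0.0286). It lost its call without PI3Ki replicate 2, SHP2i replicate 2 or 4 or Combo replicate 5 (adjusted p up to 0.072). Cx3cr1, the fractalkine receptor of monocytes and macrophages, was at 182, 231, 235, 258 and 258 CPM in the Vehicle tumors, 162, 130.3, 159 and 132 in the PI3Ki tumors, 110.2, 114, 122 and 124 in the SHP2i tumors and 113, 118, 120.5, 120.5 and 122 in the Combo tumors. Both single groups were below all Vehicle tumors, and the Combo tumors stood at the SHP2i level rather than at the sum (-1.66 expected, -0.97 found; interaction 0.69 ± 0.13, edgeR adjusted p = 0.0147).

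Promoter sequences (GRCm38.p6) were read for the genes with an entry in a separate promoter set. This set holds 98 of the 132 genes above and 187 of the 246 below the sum and 12029 of the genes tested. In the 250 bases before each start, 4 motifs were searched on both strands. The FOXO letters TGTTTAC stood in 1.52% of promoters above the sum, 2.07% below and 2.22% of all, and the AP-1 letters TGANTCA in 6.06%, 7.47% and 5.16%. The ETS letters CCGGAAG stood in 10.6%, 3.32% and 11.8%, and the STAT letters TTCNNNGAA in 5.3%, 6.64% and 5.92%. The shares above the sum thus lay near those of all promoters, and the ETS letters were less frequent below the sum; these shares were not tested. To show what was searched, the promoters of 3 genes above the sum and of 1 immediate early gene below it are given 5′ to 3′ on the gene's strand, with matches in capitals.
Mmp11, chr10:75932503-75932752, minus strand, no match: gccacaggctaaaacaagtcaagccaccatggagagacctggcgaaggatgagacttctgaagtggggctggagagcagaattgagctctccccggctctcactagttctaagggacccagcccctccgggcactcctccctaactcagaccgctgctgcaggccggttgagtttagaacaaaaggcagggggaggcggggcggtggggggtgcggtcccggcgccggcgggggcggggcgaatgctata
Wnt6, chr1:74771642-74771891, plus strand, no match: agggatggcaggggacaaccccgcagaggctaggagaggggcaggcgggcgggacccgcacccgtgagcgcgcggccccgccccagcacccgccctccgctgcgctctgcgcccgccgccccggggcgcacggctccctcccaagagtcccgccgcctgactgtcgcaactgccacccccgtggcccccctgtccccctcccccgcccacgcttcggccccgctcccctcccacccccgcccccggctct
Itga10, chr3:96645334-96645583, plus strand, 1 match of the STAT letters: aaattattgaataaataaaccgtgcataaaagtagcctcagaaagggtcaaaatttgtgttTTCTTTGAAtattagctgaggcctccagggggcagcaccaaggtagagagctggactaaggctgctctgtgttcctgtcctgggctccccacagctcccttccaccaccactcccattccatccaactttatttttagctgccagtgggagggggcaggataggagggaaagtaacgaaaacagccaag
Zfp36, chr7:28379229-28379478, minus strand, 1 match of the ETS and 1 of the STAT letters: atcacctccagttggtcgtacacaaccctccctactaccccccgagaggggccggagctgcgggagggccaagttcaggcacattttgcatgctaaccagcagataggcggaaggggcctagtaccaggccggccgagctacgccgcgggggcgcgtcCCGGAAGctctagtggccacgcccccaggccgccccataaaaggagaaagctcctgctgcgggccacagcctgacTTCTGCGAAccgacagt
The promoters of Mmp11 and Wnt6 hold none of the motifs, which says only that these letters are not in this window.

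Of the 28 tested endothelial markers, 8 lay below the sum and 0 above, against 1.61% and 0.864% of all genes, and 27 of 28 estimates were negative. The list's median interaction was -0.80. Its median effect was -0.29 for PI3Ki and 0.01 for SHP2i and -1.16 for Combo. The summed level was 1319 to 1541 CPM in Vehicle, 1068 to 1481 in PI3Ki, 1300 to 1876 in SHP2i and 766.5 to 889.8 CPM in Combo, with no overlap between Combo and the rest. With 1 tumor left out the calls numbered 6 to 12, with the neutrophil covariate 1 and with the muscle covariate 0, and the median in these fits ranged from -0.86 to -0.62.

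Kdr encodes VEGF receptor 2, the receptor through which VEGF drives endothelial growth. It was at 41.8, 31.0, 48.8, 46.9 and 49.5 CPM in the Vehicle tumors, 29.7, 42.3, 35.9 and 30.5 in the PI3Ki tumors, 43.5, 59.1, 46.0 and 40.1 in the SHP2i tumors and 10.4, 19.5, 17.7, 13.5 and 20.4 in the Combo tumors. Neither drug alone moved it past the test (-0.33 and 0.12), and all Combo tumors were below the other 13 (Combo effect -1.42 ± 0.18, interaction -1.20 ± 0.26, SE; edgeR adjusted p = 0.0239). Tie1, the partner of the angiopoietin receptor, was at 50.4, 42.4, 52.5, 44.3 and 49.7 CPM in the Vehicle tumors, 32.4, 52.3, 39.8 and 34.0 in the PI3Ki tumors, 36.2, 60.1, 42.8 and 38.1 in the SHP2i tumors and 19.2, 14.9, 18.3, 16.4 and 19.6 in the Combo tumors. The same separation held, with an interaction of -1.05 ± 0.22 (edgeR adjusted p = 0.0173). Flt1, VEGF receptor 1, had an interaction of -0.84 ± 0.20 (edgeR adjusted p = 0.0369), called in 7 of 18 fits without 1 tumor (adjusted p up to 0.0743). These 3 receptors were the only calls among 15 tested genes of the VEGF and angiopoietin family, where 2.47% of all genes passed. The ligand Vegfa was not called (-0.23) and was higher in Combo than in Vehicle (1.27, edgeR adjusted p = 0.000708).

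Sox18, a transcription factor of endothelium and lymphatics, was at 39.5, 38.0, 43.7, 36.0 and 34.3 CPM in the Vehicle tumors, 28.8, 42.8, 34.6 and 30.2 in the PI3Ki tumors, 27.1, 39.0, 27.4 and 35.5 in the SHP2i tumors and 15.6, 9.84, 11.7, 11.5 and 14.4 in the Combo tumors. Its Combo tumors lay at less than the lowest of all others, and the interaction was -1.19 ± 0.21 (SE; edgeR adjusted p = 0.00819). Rasip1, a RAS-family effector that vessels need to form a lumen, was at 24.2 to 31.9 CPM in Vehicle, 16.6 to 26.2 in PI3Ki, 21.4 to 33.8 in SHP2i and 7.92 to 10.4 in Combo (interaction -1.16 ± 0.21, edgeR adjusted p = 0.00897). Aplnr, the apelin receptor of sprouting endothelium, was at 25.9, 27.8, 40.8, 21.8 and 24.7 CPM in the Vehicle tumors, 14.8, 44.0, 24.0 and 15.5 in the PI3Ki tumors, 39.7, 32.3, 33.5 and 35.7 in the SHP2i tumors and 4.68, 5.68, 5.92, 2.85 and 2.83 in the Combo tumors. It had the largest interaction of the endothelial list (-2.80 ± 0.42, edgeR adjusted p = 0.00277), with values in SHP2i at or above those of most Vehicle tumors and Combo at -2.68 on the log2 scale. Pecam1, the general endothelial marker, was at 151 to 185 CPM in Vehicle and 68.9 to 108 CPM in Combo (interaction -0.84 ± 0.19, edgeR adjusted p = 0.0276). Pecam1 lost its call without Vehicle replicate 2, PI3Ki replicate 2, SHP2i replicate 3 or 4 or Combo replicate 4 (adjusted p up to 0.0609). Eng was an exception among well expressed markers, with an interaction of 0.01 (edgeR adjusted p = 0.975).

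Some genes of the vessel wall and its basement membrane followed. Mcam, found on endothelium and pericytes, was at 129.7, 114, 131, 121 and 143 CPM in the Vehicle tumors, 85.8, 95.7, 90.6 and 69.1 in the PI3Ki tumors, 104, 154, 106 and 101 in the SHP2i tumors and 39.9, 40.6, 45.7, 39.4 and 37.5 in the Combo tumors. PI3Ki alone lowered it (-0.58, edgeR adjusted p = 0.0087), SHP2i did not pass (-0.14), and Combo stood at -1.65 against a sum of -0.72 (interaction -0.93 ± 0.17, SE; edgeR adjusted p = 0.00918). Nid2, a basement membrane linker, was at 43.3 to 82.7 CPM in Vehicle, 39.0 to 66.4 in PI3Ki, 54.0 to 101 in SHP2i and 20.9 to 31.2 in Combo (interaction -1.33 ± 0.27, edgeR adjusted p = 0.0171). Col15a1, a collagen of vessel basement membranes, was at 125, 79.0, 102, 86.0 and 97.6 CPM in the Vehicle tumors, 91.9, 103, 119 and 97.9 in the PI3Ki tumors, 107, 144, 128 and 123 in the SHP2i tumors and 40.6, 43.0, 75.0, 34.1 and 38.4 in the Combo tumors. Combo tumors were below all others, with replicate 3 the nearest, and the interaction was -1.52 ± 0.26 (edgeR adjusted p = 0.00734). The collagen IV genes Col4a1 and Col4a2 were not called, and their Combo levels overlapped those of Vehicle and PI3Ki. Col4a1 was at 823.2 to 1199 CPM in Vehicle, 723.6 to 1103 in PI3Ki, 1116 to 1796 in SHP2i and 748.8 to 885.7 in Combo. Col4a2 was at 457.5 to 666.5 CPM in Vehicle, 463.7 to 668.9 in PI3Ki, 619.1 to 1081 in SHP2i and 466.8 to 550.6 in Combo. Of 14 tested pericyte and smooth muscle markers 3 lay below the sum, against 1.61% of all genes: Mcam, Acta2 and Des. Acta2, smooth muscle actin, was at 46.8 to 70.5 CPM in Vehicle, 42.4, 200.3, 84.0 and 53.9 in the PI3Ki tumors and 10.3 to 23.9 in Combo (interaction -2.25 ± 0.48, edgeR adjusted p = 0.0218). Des is also a skeletal muscle gene and was at 48.7 to 232 CPM in PI3Ki against 6.15 to 12.9 in Vehicle.

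**Figure D4:**
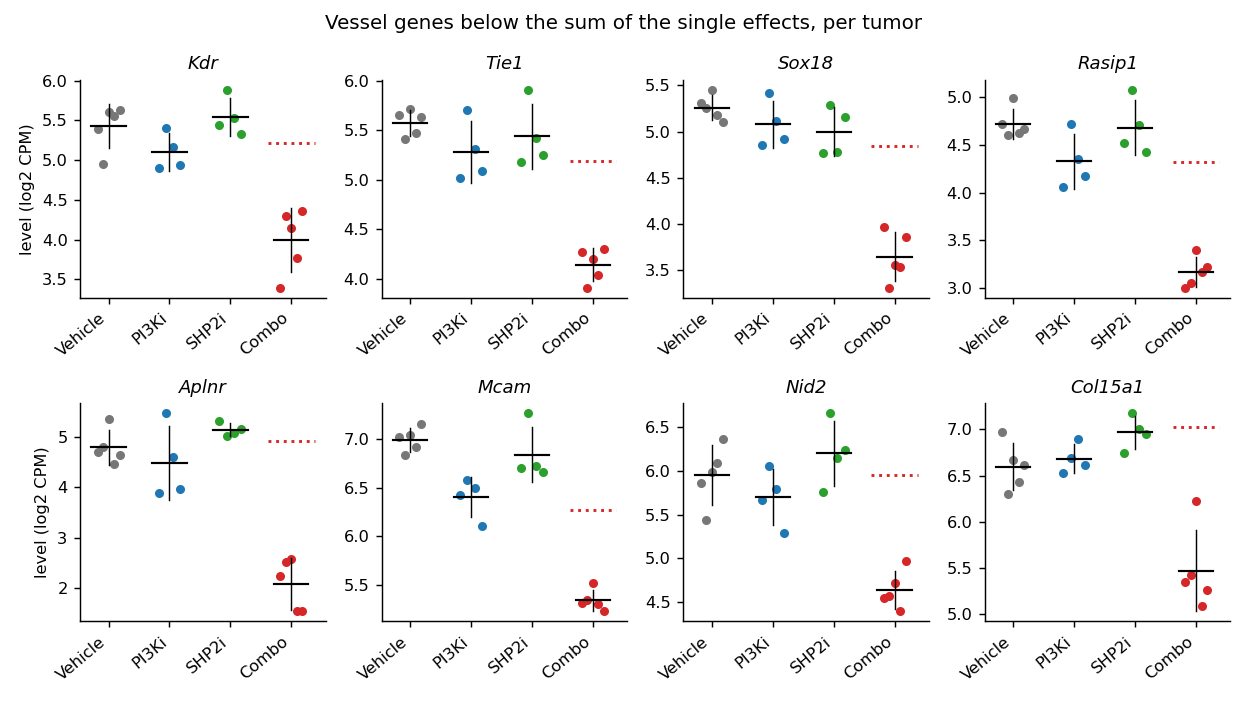
Levels of 8 vessel genes that were called below the sum are plotted as log2 CPM (vertical axis) for each tumor of the 4 groups. Horizontal bars are means, vertical bars the SD, and the dotted red line is the level that the sum of the single effects gives. The 5 Combo tumors lie below that line and below the 13 other tumors in each panel. The single drugs keep near Vehicle except for Mcam in PI3Ki. The panels were picked from called genes, and 8 of the 28 tested endothelial markers were called, so that the separation does not stand for all vessel genes.

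The collagen and fibroblast lists had positive medians for each drug alone and negative ones for the pair. Of 19 tested collagen genes 6 lay below the sum and 0 above, against 1.61% and 0.864% of all genes. Their median interaction was -1.25, with median effects of 0.49 for PI3Ki, 0.45 for SHP2i and -0.81 for Combo. Col5a1, which starts collagen fibrils, was at 376, 257, 376, 304 and 334 CPM in the Vehicle tumors, 389.6, 551, 533 and 356 in the PI3Ki tumors, 410.2, 439, 596 and 456 in the SHP2i tumors and 284, 365, 338, 294 and 265 in the Combo tumors. SHP2i raised it (0.53, edgeR adjusted p = 0.0332), PI3Ki had an estimate of 0.47 (not called), and Combo tumors were back at the Vehicle level (-0.09; interaction -1.09 ± 0.22, edgeR adjusted p = 0.015). Col6a2 had the same shape (0.71 for SHP2i, -0.03 for Combo, interaction -1.25 ± 0.27, edgeR adjusted p = 0.0237) and lost its call without SHP2i replicate 4 (adjusted p = 0.0648). Col1a1, the main fibrillar collagen, was at 2023, 793, 1630, 1097 and 1564 CPM in the Vehicle tumors, 1737, 4334, 2959 and 1320 in the PI3Ki tumors, 1367, 1596, 3404 and 2144 in the SHP2i tumors and 413, 915, 1011, 271 and 204 in the Combo tumors. Levels spread widely within each group (interaction -2.78 ± 0.65, edgeR adjusted p = 0.0334), and the call held in 11 of 18 fits without 1 tumor (adjusted p up to 0.0866). Of 16 fibroblast markers 2 lay below the sum and 0 above, against 1.61% and 0.864% of all genes. Their median of -1.02 became 0.36 with the muscle covariate. Groups account for 88.3% of that covariate's variance, so that muscle content and PI3Ki treatment cannot be told apart by this fit. Without Combo replicate 3, 7 fibroblast markers and 9 collagens were called, and without SHP2i replicate 4 these counts were 0 and 2. The fibroblast count was also 0 without Vehicle replicate 2, 4 or 5, PI3Ki replicate 2, SHP2i replicate 5 or Combo replicate 4. Collagens had 3 calls without Vehicle replicate 2, 4 or 5, SHP2i replicate 5 or Combo replicate 4, and 0 with the muscle or the neutrophil covariate. Mrc2, the collagen uptake receptor, lay below the sum as well (-1.95 ± 0.48, edgeR adjusted p = 0.0409; called in 7 of 18 fits, adjusted p up to 0.102).

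The skeletal muscle list had the lowest median of all 41 lists. Of 21 tested markers 10 lay below the sum and 0 above, against 1.61% and 0.864% of all genes, with a median interaction of -3.57. The list's median effect was 5.57 for PI3Ki, -1.94 for SHP2i and -0.32 for Combo. The count was 5 without SHP2i replicate 2, 6 without SHP2i replicate 4 and 9 to 11 without any other tumor. Ryr1, the calcium release channel of muscle, was at 2.22, 1.80, 4.88, 2.67 and 1.96 CPM in the Vehicle tumors, 71.8, 65.4, 58.9 and 28.9 in the PI3Ki tumors, 2.54, 1.69, 2.29 and 2.28 in the SHP2i tumors and 0.963, 4.29, 2.61, 1.51 and 1.46 in the Combo tumors. The PI3Ki tumors stood alone, and the Combo range overlapped that of Vehicle (interaction -4.40 ± 0.54, SE; edgeR adjusted p = 0.000898). Myl1, a fast muscle myosin light chain, was at 0.410 to 4.40 CPM in Vehicle, 23.3 to 76.8 in PI3Ki, 0.895 to 1.29 in SHP2i and 0.216 to 3.51 in Combo. The interaction of Mylpf, its partner light chain, was -4.54 ± 0.88 (edgeR adjusted p = 0.0147). Jph2, Srl, Rtn2, Cmya5 and Pdlim3, which encode proteins of the muscle membrane systems and the sarcomere edge, were called with interactions of -3.22, -2.35, -2.35, -4.13 and -4.68. Rabep2 had the smallest p of all (-2.81 ± 0.24, edgeR adjusted p = 1.88e-05) and overlaps Atp2a1, the calcium pump of fast muscle, and Tpm2 overlaps Car9. The high muscle marker level of the PI3Ki tumors and the PI3Ki treatment cannot be told apart in these values.

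Neutrophil markers were high in 1 PI3Ki tumor, low in the SHP2i tumors and lower in the Combo tumors. Against the Vehicle mean, the list mean was -0.56 to 0.54 in Vehicle, -1.80 to -0.87 in SHP2i and -3.44 to -1.83 in Combo. The list's median effect was 1.55 for PI3Ki, -1.34 for SHP2i and -2.84 for Combo. Of 18 tested neutrophil markers 5 lay below the sum, against 1.61% of all genes, 18 of 18 estimates were negative and the median was -2.74. S100a9, a subunit of neutrophil calprotectin, was at 71.1, 85.9, 112, 53.0 and 47.2 CPM in the Vehicle tumors, 75.8, 744, 53.2 and 109.6 in the PI3Ki tumors, 23.7, 17.7, 38.6 and 38.2 in the SHP2i tumors and 12.2, 3.31, 1.71, 2.94 and 0.930 in the Combo tumors. Replicate 2 of PI3Ki is the high value, and the Combo tumors lie below all others. The interaction of S100a9 was -4.54 ± 1.01 (edgeR adjusted p = 0.0266), called in 12 of 18 fits without 1 tumor (adjusted p up to 0.0595). Cxcr2, the chemokine receptor of neutrophils, was at 7.63 to 15.4 CPM in Vehicle and 0.443 to 2.28 in Combo, with 10.3, 56.9, 8.74 and 11.1 in the PI3Ki tumors (interaction -3.35 ± 0.75, edgeR adjusted p = 0.0275; 13 of 18 fits, adjusted p up to 0.0668). Without PI3Ki replicate 2 the list had 1 call and a median of -0.94, and without Vehicle replicate 4 or 5, SHP2i replicate 4 or 5 or Combo replicate 4 it had 0 calls.

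Il1b, the cytokine interleukin 1 beta, was called in all 18 fits without 1 tumor. Its level was 91.2, 93.3, 112, 94.6 and 70.1 CPM in the Vehicle tumors, 108, 99.5, 50.8 and 84.7 in the PI3Ki tumors, 31.1, 21.3, 59.1 and 47.5 in the SHP2i tumors and 9.54, 12.2, 8.53, 5.14 and 2.97 in the Combo tumors. SHP2i lowered it (-1.21, edgeR adjusted p = 0.0251), PI3Ki did not pass (-0.10), and Combo reached -3.58 ± 0.34 against a sum of -1.32 (interaction -2.27 ± 0.46, SE; edgeR adjusted p = 0.0173). It overlaps the antisense gene Il1bos. Of 18 tested inflammatory cytokines and chemokines 4 lay below the sum and 1 above, against 1.61% and 0.864% of all genes. The count below was 1 without Vehicle replicate 2, 4 or 5, PI3Ki replicate 2 or SHP2i replicate 4. It was 2 without PI3Ki replicate 5, SHP2i replicate 2 or 5 or Combo replicate 4 or 5. The gene above is Ptgs2, the inducible prostaglandin synthase, which SHP2i raised alone (0.88) and Combo raised more (1.2; interaction 0.54 ± 0.13, edgeR adjusted p = 0.0343; called in 8 of 18 fits, adjusted p up to 0.0874). Cxcl5, which draws neutrophils, was higher with PI3Ki (1.77, edgeR adjusted p = 0.0419) and was at 4.52 to 26.3 CPM in Combo against 13.1 to 24.5 in Vehicle (interaction -3.0 ± 0.68, adjusted p = 0.0291; 12 of 18 fits, adjusted p up to 0.0718).

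Gpr34, a lysophospholipid receptor of macrophages and mast cells, was at 10.7, 12.8, 15.4, 10.2 and 10.9 CPM in the Vehicle tumors, 11.3, 15.2, 12.9 and 10.6 in the PI3Ki tumors, 3.30, 1.92, 3.29 and 2.69 in the SHP2i tumors and 0.438, 1.03, 0.530, 0.691 and 0.399 in the Combo tumors. PI3Ki alone did not pass (0.06), SHP2i gave -2.09 and the pair -4.27 ± 0.24 (SE; interaction -2.23 ± 0.33, edgeR adjusted p = 0.00253). Gpr34 is not on the macrophage and monocyte list, so that it does not stand for those cells. Of 7 tested mast cell markers 1 lay below the sum and 0 above, against 1.61% and 0.864% of all genes. The mast cell median was -0.08, with 3 estimates positive and 4 negative. Of 20 macrophage and monocyte markers 19 estimates were negative with a median of -0.70, though the only call was Cx3cr1, above the sum. The macrophage list's median became 0.78 with the muscle covariate and 0.36 with the neutrophil covariate. Groups account for 88.3% and 75.6% of the variance of these covariates, so that these fits cannot tell cell content and treatment apart. Fcgr1, an antibody receptor of macrophages, came nearest to a call (-1.85, edgeR adjusted p = 0.0533). Siglech, a marker of plasmacytoid dendritic cells, was the 1 call among 14 dendritic cell markers, where 2.47% of all genes passed. It was at 2.17 to 7.38 CPM in Vehicle and at 0.0438, 0, 0, 0.0432 and 0 in the Combo tumors (adjusted p = 0.0483, edgeR; called in 4 of 18 fits, adjusted p up to 0.104). Counts in Combo were too few for a fold.

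Immediate early genes are switched on by ERK within minutes of a signal. Of 18 tested members 4 lay below the sum and 0 above (median -0.49), against 1.61% and 0.864% of all genes. Egr1 was at 40.4, 26.7, 34.7, 35.1 and 35.9 CPM in the Vehicle tumors, 43.4, 36.6, 43.3 and 33.5 in the PI3Ki tumors, 22.3, 18.4, 26.7 and 38.5 in the SHP2i tumors and 7.92, 8.54, 15, 9.67 and 5.80 in the Combo tumors. Each Combo tumor was below the lowest of the other tumors, 18.4 CPM in SHP2i replicate 3, and the Combo effect of -1.88 ± 0.22 stood against a sum of -0.20 (interaction -1.68 ± 0.32, SE; edgeR adjusted p = 0.0137). Fos was at 37.9, 23.9, 44.7, 29.9 and 38.3 CPM in the Vehicle tumors, 50.9, 49.8, 66.1 and 32.0 in the PI3Ki tumors, 23.9, 24.6, 39.1 and 39.4 in the SHP2i tumors and 16.3, 14.1, 20.6, 13.8 and 11.4 in the Combo tumors. It followed with an interaction of -1.57 ± 0.32 (edgeR adjusted p = 0.0171). Zfp36, which destabilises cytokine mRNAs and whose promoter is printed before, had -1.29 ± 0.31 (edgeR adjusted p = 0.0366; 7 of 18 fits without 1 tumor, adjusted p up to 0.0964). The other call was Ier3. The list's count ranged from 2 to 5 with 1 tumor left out and was 2 without Vehicle replicate 2, 4 or 5, PI3Ki replicate 1 or 2, SHP2i replicate 2, 4 or 5 or Combo replicate 2 or 5. Of 15 ERK feedback genes 1, the phosphatase Dusp5, lay below the sum and 0 above, against 1.61% and 0.864% of all genes. That list did not lean below the sum: its median interaction was 0.17, with 9 estimates positive and 6 negative. Dusp5 was at 14.2 to 19.7 CPM in Vehicle, 13.2 to 17.7 in PI3Ki, 7.30 to 12 in SHP2i and 3.02 to 6.81 in Combo. Its interaction was -1.26 ± 0.30 (edgeR adjusted p = 0.034), called in 5 of 18 fits without 1 tumor (adjusted p up to 0.0915). Dusp6, the feedback phosphatase most used as an ERK readout, did not pass (0.10, edgeR adjusted p = 0.795), with SHP2i at -0.69 and Combo at -0.45.

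For further genes the pair gave less than the sum of positive single estimates. Ddit4, an inhibitor of mTORC1, was at 109, 96.0, 125, 93.1 and 97.2 CPM in the Vehicle tumors, 216, 161, 117 and 156 in the PI3Ki tumors, 178, 148, 200 and 128 in the SHP2i tumors and 149, 122, 123, 138 and 126 in the Combo tumors. PI3Ki gave 0.64 and SHP2i 0.65, both called, and the pair 0.34 (not called), which made an interaction of -0.95 ± 0.21 (edgeR adjusted p = 0.0277). It lost its call without Vehicle replicate 4 or 5 or SHP2i replicate 2 or 4 (adjusted p up to 0.0711). Bpifb1, an airway secretory protein, rose with PI3Ki (2.30), with SHP2i (2.53) and with Combo (1.54), short of the sum of 4.83 (interaction -3.29 ± 0.59, edgeR adjusted p = 0.00856). Its levels were low, at 0.277 to 1.003 CPM in Vehicle, 1.248 to 5.258 in PI3Ki, 1.81 to 4.608 in SHP2i and 0.984 to 2.657 in Combo. These folds thus rest on few counts in Vehicle, whose range the Combo range touched. Gm20319, an unnamed locus that overlaps Il1rap, was higher with SHP2i (0.67) and lower with Combo (-0.40; interaction -1.27 ± 0.18, edgeR adjusted p = 0.00179).

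Several lists leaned to 1 side without a call. All 24 cell cycle genes had negative estimates (median -0.63, summed level 2959 to 3550 CPM in Vehicle and 1587 to 3708 in Combo), and 0 passed with edgeR, while DESeq2 called 2. All 31 interferon-stimulated genes were negative as well (median -0.88), and 0 passed with edgeR against 5 with DESeq2. Both lists turned on Combo replicate 1: without it, 9 cell cycle and 10 interferon-stimulated genes lay below the sum. The interferon list had 4 calls without SHP2i replicate 3 and 1 without PI3Ki replicate 1. The nearest genes were Plk1, a mitotic kinase (-0.97, edgeR adjusted p = 0.0785), and Oasl1, an interferon-induced antiviral gene (-1.52, edgeR adjusted p = 0.064). B and plasma cell markers had a median of 3.68 with 0 calls among 11, which became -1.71 without Combo replicates 3 and 4. The 21 sterol and fatty acid synthesis genes had 0 calls and a median of -0.09, with medians of -0.42 for PI3Ki and -0.68 for Combo against Vehicle.

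**Figure D5:**
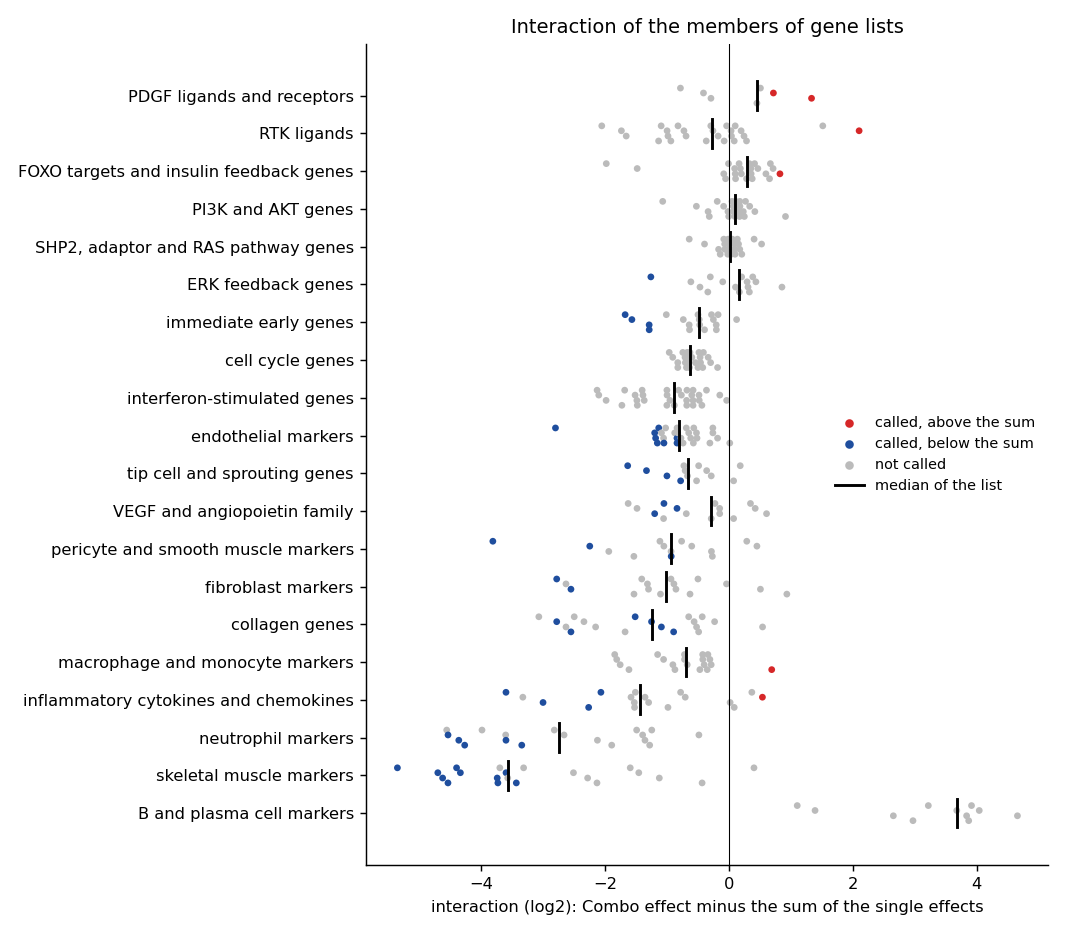
The interaction (log2, horizontal axis) of each tested member of 20 gene lists is shown as a point, red or blue where called above or below the sum and grey where not, with the list's median as a black bar. PI3K and SHP2 pathway genes centre on 0 (medians 0.10 and 0.02), vessel, collagen and muscle lists lie to the left (medians -0.80, -1.25 and -3.57), and the B cell list lies to the right without a call.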

How the data were processed

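RNA of 18 4T1 tumors was sequenced after poly(A) selection in directional paired-end libraries. The authors trimmed adapters with cutadapt, aligned reads with STAR to GRCm38, counted them per gene with QuasR and deposited raw counts, 1 table per tumor (the submitters' processing notes name STAR, GRCm38 and hg19). Annotation, versions and strand setting are not given in the sources used here. No column was left unused (0). Of 22792 Entrez IDs 22760 matched a RefSeq symbol, and the 32 others held 0.0193% of counts.

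Counts were filtered with filterByExpr (minimum count 10, minimum total 15), TMM scaled and fitted per group with edgeR 4.0.16 in R 4.3.3 by the quasi-likelihood F test, with Benjamini-Hochberg adjustment over 15282 genes. The SE is the absolute log2 estimate over the root of F, and log2 CPM used a prior count of 2. In data simulated from these counts the interaction test recovered 58% of 50 genes changed by 1 on the log2 scale. It recovered 100% of 50 changed by 3, with 7 false calls over 15170 genes. Each gene was drawn independently with the same mean in all groups, and changes were set in Combo for genes with a mean log2 CPM over 1. Differences in cell content that many genes share were not simulated, so that these rates may not hold for the tumors. Among called genes with a mean log2 CPM over 1, the 8 with the largest estimate and the 8 with the smallest p per direction were named, and from each of 41 lists the 3 tested genes of smallest p plus the 2 most highly expressed, with the drug target genes and Pdgfrb. Ier3 and Wls were named after their values were seen. The comparison, members and lists were chosen with earlier results of these data known. Figures were drawn with matplotlib 3.10.9, and alternatives used DESeq2 1.42.0, limma 3.58.1 and other scalings, filters, covariates and left-out tumors.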

Additional observations from a re-analysis of the deposited data

Results flagged for a closer look

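The interaction is itself a difference between effects: the SHP2i effect differed with and without PI3Ki for 132 genes above and 246 genes below the sum (edgeR's quasi-likelihood F test). Among 328 groups of tumors of 68 called named genes and 14 lists, 19 values stood apart from their group by Dixon's criterion, and chance gives about 1 in 20 groups. PI3Ki replicate 2 gave 5 of them: on the log2 CPM scale it was the highest of its group for Cxcr2 (5.83) and Retnlg (6.22) and the lowest for Irs1 (5.36) and Npnt (6.01), and its neutrophil list mean was 3.07 above the Vehicle mean. Vehicle replicate 3 was the highest of its group for the muscle gene Des (3.70), for Rabep2 (4.76) and for Rasip1 (5.00), and Vehicle replicate 2 was the lowest for Cemip2 (6.34). In the PI3Ki group replicate 1 was the highest for Pdgfa (7.55) and the lowest for Siglech (-0.47), and replicate 3 was the highest for Cemip2 (7.16) and the lowest for Dusp5 (3.73). In the SHP2i group replicate 2 was the lowest for Bpifb1 (0.92), replicate 3 the highest for Mcam (7.26) and replicate 4 the lowest for Pdlim3 (-1.0). Against the Vehicle mean, the endothelial list mean of SHP2i replicate 3 was 0.37, the mast cell list mean of SHP2i replicate 2 was -0.91 and the epithelial and keratin list mean of SHP2i replicate 4 was -1.04.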

How the results depend on the processing

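Against 132 genes above and 246 below the sum, DESeq2 called 278 and 488 and edgeR's likelihood ratio test 206 and 437, limma voom with quality weights called 225 above, no filter on low counts left 79 above, and an absolute interaction over 1 left 47 above. Counts stayed within 1.5 times of these under RLE, upper quartile and total count scaling and with a mean of at least 1 CPM. With the list means as covariates the counts were 0 and 0 (muscle), 47 and 120 (B cell) and 4 and 23 (neutrophil, chosen after seeing the data), and of the 68 called named genes 0, 45 and 11 passed. None of the 68 called named genes (65 with an adjusted p from DESeq2) changed sign under the alternatives run, and named genes that were not called were not followed singly. The B cell list's median, which rests on no call, went from 3.68 to -1.71 without Combo replicates 3 and 4. Same-numbered tumors had a median correlation of deviations of 0.0178 over 24 pairs, from -0.42 to 0.326. The median was -0.00647 over 97 pairs of unlike number. These values gave no sign of pairing, but with so wide a range they cannot exclude it. With the replicate block 58 genes passed above and 142 below.

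Leaving out 1 tumor gave 38 to 218 genes above and 111 to 414 below. Above the sum the count was 78, 69, 52 and 52 without Vehicle replicates 2, 3, 4 and 5, 50 without PI3Ki replicate 2, 51, 38 and 63 without SHP2i replicates 2, 4 and 5, and 218, 58 and 66 without Combo replicates 3, 4 and 5. Below the sum it was 149, 130 and 137 without Vehicle replicates 2, 4 and 5, 150 without PI3Ki replicate 2, 156, 111 and 142 without SHP2i replicates 2, 4 and 5, and 414, 373, 147 and 163 without Combo replicates 1, 3, 4 and 5. Groups of 4 and 5 tumors limit smaller interactions. Of simulated ones of 1 on the log2 scale 58% were recovered, in counts without shared differences in cell content.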

Other observations

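Pdgfra, a receptor for the ligands Pdgfa and Pdgfc, had values in Combo above those of all other tumors without passing the interaction test. Its level was 169, 146, 237, 201 and 236 CPM in the Vehicle tumors, 329, 251, 334 and 264 in the PI3Ki tumors, 209, 320.0, 314 and 340.5 in the SHP2i tumors and 464, 546, 492, 604 and 1026 in the Combo tumors. The single effects were 0.57 ± 0.22 for PI3Ki and 0.58 ± 0.22 for SHP2i (SE), neither called, the Combo effect was 1.66 ± 0.21 (edgeR adjusted p = 1.26e-05) and the interaction 0.51 ± 0.31 (edgeR adjusted p = 0.391). Frs2, an adaptor that carries FGF receptor signals to SHP2, also lay higher in Combo, at 66.4 to 83.7 CPM against 37.2 to 49.7 in Vehicle, 33.9 to 51.3 in PI3Ki and 44.3 to 54.3 in SHP2i, with an interaction of 0.53 ± 0.16 (edgeR adjusted p = 0.105). Both genes were singled out here after their values were seen.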
